A study of Mus musculus with 48 samples.

Results

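The Apoe and Apoc1 gene cluster of mouse chromosome 7 was followed together with the genes that lie around it. The 7 genes are Apoe, Apoc1, Apoc2, Tomm40, Clptm1, Relb and Bcam, of 55450 genes in the expression tables. Apoe and Apoc1 were chosen by their read counts, which were higher in DKO cells, so their DKO and WT values are given as a description with no test. The other 5 genes were put on it for their position, and their DKO and WT values were tested.

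RNA was sequenced from primary white preadipocytes, isolated from the inguinal white adipose tissue (iWAT) of mice 8 to 12 weeks old, and from mouse embryonic fibroblasts (MEFs), both of C57BL/6 strain. WT cells carry intact Hmgn1 and Hmgn2, and DKO cells (Hmgn1-/- and Hmgn2-/-) come from mice that lack both of these genes, which encode proteins that bind nucleosomes. All cultures received the same cocktail of insulin, dexamethasone, IBMX, T3 and rosiglitazone after day 0, and then a maintenance medium with insulin and T3. These media drive the cells towards beige adipocytes. The cocktail was given for 4 days to preadipocytes and for 8 days to MEFs. A change between days 3 and 6 of preadipocytes or days 8 and 12 of MEFs therefore also spans the change of medium. Preadipocytes were sampled at days 0, 3, 6 and 9 and MEFs at days 0, 4, 8 and 12, 3 libraries per genotype and day, 16 groups and 48 libraries in all. The labels give no source animal or culture for a library, so p-values measure the spread between these libraries.

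Apolipoprotein E is a secreted protein that binds lipid and carries lipoproteins to receptors of the LDL receptor family, and it is made by hepatocytes, macrophages and adipocytes. Apolipoprotein C1 inhibits lipoprotein lipase and cholesteryl ester transfer, while apolipoprotein C2 is the cofactor that activates lipoprotein lipase. In macrophages and adipocytes the genes of this cluster can be switched on by the sterol sensing receptors LXR through enhancers shared along the cluster.

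In coordinates of mm10 (GRCm38) and the GENCODE M21 annotation, all 7 genes lie on the minus strand and together span 164.8 kb, from base 19606217 to base 19771016. Apoe lies at chr7:19696109-19699188, Apoc1 at chr7:19689481-19692660 and Apoc2 at chr7:19671579-19677941. Tomm40 (chr7:19701313-19715438), which encodes the channel for protein import into mitochondria, ends 2125 bp before the start of Apoe, closer than Apoc1 at 3449 bp. Clptm1 (chr7:19631571-19665033), a membrane protein gene, is 31076 bp from Apoe, and Relb (chr7:19606217-19629438), an NF-kB subunit gene, is 66671 bp from it. Bcam (chr7:19756131-19771016), which encodes a cell surface receptor for laminin, lies 56943 bp away on the other side. The region within 200 kb of Apoe holds 32 annotated genes, 25 of them beside the 7.

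The sequences directly upstream of Apoe and Apoc2 are shown because the DKO libraries lay above WT for Apoe and below WT for Apoc2 at days 6 and 9 of preadipocytes and day 12 of MEFs, while both lay below at day 0 of MEFs. They come from RefSeq (GRCm38.p6), are written 5′ to 3′ on the minus strand and end at the base before the annotated start. The Apoc2 stretch is shorter since the gene Apoc4 ends there. The Apoe stretch is chr7:19699189-19699438 and the Apoc2 stretch is chr7:19677942-19678082.
Apoe: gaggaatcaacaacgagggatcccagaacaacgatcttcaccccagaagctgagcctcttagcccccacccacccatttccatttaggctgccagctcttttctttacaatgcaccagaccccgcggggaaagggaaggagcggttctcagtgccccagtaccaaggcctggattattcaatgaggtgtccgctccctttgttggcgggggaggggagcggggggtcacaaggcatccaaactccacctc
Apoc2: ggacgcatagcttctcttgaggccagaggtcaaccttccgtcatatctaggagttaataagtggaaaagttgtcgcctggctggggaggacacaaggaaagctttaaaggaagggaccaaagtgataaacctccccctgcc

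Both strands of each stretch were searched for the AP-1 letters TGANTCA, for AGGTCA repeated after 4 bases (the LXR repeat) or after 1 base (the PPAR repeat), for CCAAT, for the GC box GGGCGG and for the TATA letters TATAAA, and none was found. The PPAR and LXR repeats share their letters and were counted apart. Among 32851 promoters of the same 250 bases, 6.75% held the AP-1 letters, 0.0152% the LXR repeat, 0.0335% the PPAR repeat, 33.8% CCAAT, 32.7% the GC box and 12.4% the TATA letters. Over the 141 bases of the Apoc2 stretch these shares were 4.01%, 0.0122%, 0.0304%, 23.5%, 28.1% and 7.24%. No capitals are used in the sequences, since no searched letters were found.

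The libraries held between 19809397 and 36006696 counts in preadipocytes and between 18962483 and 33083213 in MEFs. Levels are given as CPM, the count of a gene relative to the TMM-scaled total of its library. To be called, a gene had to differ at least 1.5-fold and to have a p under 0.05 in edgeR's quasi-likelihood test after Benjamini-Hochberg adjustment over all genes tested. Hmgn2 had at most 10 counts in any DKO library, whereas Hmgn1 had group means of 77.8 to 102 CPM in DKO and 78.6 to 197 CPM in WT cells. Of 8 markers of preadipocytes or fibroblasts, 7 or 8 had a mean above 1 CPM in every group, and of 15 macrophage markers 12 to 15 did. In these bulk samples, fewer cells of a type and less RNA per cell cannot be told apart.

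Apoe RNA was higher in DKO than in WT preadipocytes at every day, and the libraries did not overlap at any of them. At day 0 the WT libraries held 37.5, 27.9 and 23.4 CPM and the DKO libraries 147, 356 and 197 CPM, 7.88-fold more by the means. At day 3 the WT libraries held 30.01, 25.3 and 31.9 CPM against 588, 912 and 827 CPM in DKO, 26.7-fold more. Apoe thus stood at 776 ± 168 CPM (SD, n = 3) in DKO cells at a day when WT cells still had 29.0 ± 3.41 CPM (SD, n = 3).

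At day 6 the WT libraries had 224, 655 and 515 CPM and the DKO libraries 1283, 1161 and 964 CPM, 2.45-fold more. At day 9 the WT libraries held 183, 377 and 333 CPM and the DKO libraries 917, 936 and 673 CPM, 2.83-fold more. On the log2 scale the fitted fold changes were 2.98 ± 0.38 (SE), 4.75 ± 0.21, 1.26 ± 0.38 and 1.47 ± 0.28 over the 4 days. The share of all tested genes whose DKO libraries lay above all WT libraries was 7.39%, 10.6%, 24.7% and 22.2% in the same order, and nothing is read from the Apoe values against it.

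Apoc1 RNA took the same direction from a far lower level. No Apoc1 read was counted in any WT preadipocyte library at day 0, which allows up to 3 counts a library or 0.131 CPM, and the DKO libraries held 6.97, 8.53 and 3.46 CPM, with a mean of 6.32 CPM that is at least 48.3-fold higher than WT. At day 3 the WT libraries held 0.0441, 0.427 and 0.428 CPM, from 1 to 13 counts each, and the DKO libraries 20.1, 19.3 and 11.5 CPM. As for Apoe, no DKO library fell within the WT range on any of the 4 days.

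At day 6 the Apoc1 values were 3.49, 4.16 and 3.27 CPM in WT and 22.1, 27.7 and 17.6 CPM in DKO. At day 9 they were 14.5, 16.3 and 21.5 CPM in WT and 45.8, 43.6 and 41.6 CPM in DKO. The fitted log2 fold change of Apoc1 was 5.76 ± 0.53 (SE) at day 3, 2.58 ± 0.18 at day 6 and 1.29 ± 0.14 at day 9.

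**Figure D1:**
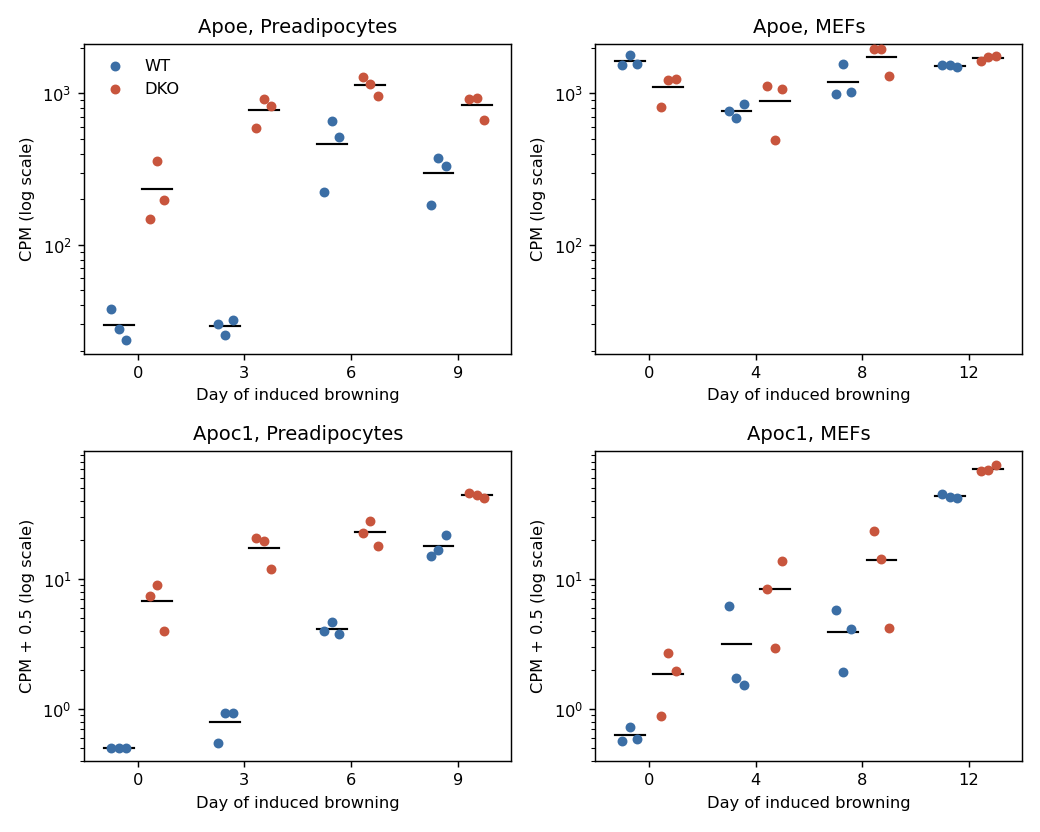
Apoe in CPM (top, log axis) and Apoc1 in CPM with 0.5 added (bottom, log axis) against the day of induced browning, in preadipocytes (left) and MEFs (right). Each point is 1 library, blue for WT and red for DKO, and the black line is the mean of 3 libraries; in preadipocytes all DKO points lie above the WT points of the same day for both genes, and in MEFs at day 0 the DKO points of Apoe lie below.

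In MEFs the pattern of Apoe was another one. At day 0 the WT libraries held 1543, 1787 and 1570 CPM and the DKO libraries 816, 1233 and 1243 CPM, so that all DKO values lay below, with a log2 fold change of -0.57 ± 0.19 (SE). At day 4 the values were 768, 690 and 852 CPM in WT and 1119, 494 and 1069 CPM in DKO. At day 8 they were 986, 1569 and 1027 CPM against 1959, 1978 and 1307 CPM, and the groups overlapped at both days.

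At day 12 Apoe held 1534, 1545 and 1498 CPM in WT MEFs and 1646, 1742 and 1753 CPM in DKO MEFs. The DKO libraries lay above by a log2 fold change of 0.14 ± 0.04 (SE), which was 0.09 after scaling by library size alone and 0.03 with limma-voom. The share of tested genes with all DKO libraries below WT was 9.74% at day 0, and with all above it was 26.5% at day 12.

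Apoc1 lay above WT in all DKO MEF libraries at day 0 and day 12. At day 0 the WT libraries held 0.06997, 0.226 and 0.0824 CPM and the DKO libraries 0.377, 2.20 and 1.46 CPM. At day 12 the WT libraries held 44.9, 42.3 and 41.7 CPM and the DKO libraries 67.6, 68.3 and 75.3 CPM, different by 0.69 ± 0.06 (SE) on the log2 scale. Between these days the groups overlapped, with 5.71, 1.23 and 1.04 CPM in WT against 7.93, 2.43 and 13.3 CPM in DKO at day 4, and with 5.26, 1.44 and 3.63 CPM against 22.8, 13.9 and 3.73 CPM at day 8. All DKO libraries of 8.89% of tested genes lay above WT at day 0.

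Ordered by mean level, the 8 groups of preadipocytes ran for Apoe from WT day 3 and WT day 0, which overlapped, to DKO day 0 with 233 CPM, and then through WT day 9, WT day 6, DKO day 3 and DKO day 9, which overlapped from each to the next, to DKO day 6 with 1136 CPM. DKO day 0 lay above the WT groups of days 0 and 3, and DKO day 6 above all libraries of DKO day 9. For Apoc1 the order was WT day 0, WT day 3, WT day 6, DKO day 0, DKO day 3, WT day 9, DKO day 6 and DKO day 9, in which WT day 6 and DKO day 0 overlapped and so did DKO day 3, WT day 9 and DKO day 6. In MEFs each group overlapped the next for Apoe, from WT day 4 with 770 CPM to DKO day 8 with 1748 CPM. Per kb of exon, Apoe held 714 ± 11.5 CPM per kb (SD, n = 3) in WT MEFs at day 12, Apoc1 57.7 ± 2.33 and Apoc2 11.4 ± 0.0218.

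Apoc2, the third apolipoprotein gene listed and 18168 bp from Apoe, was called lower in DKO cells at days 6 and 9 of preadipocytes and at day 12 of MEFs, days at which the DKO libraries of Apoe and Apoc1 lay above WT. At day 6 the WT preadipocyte libraries held 2.48, 4.35 and 3.15 CPM and the DKO libraries 1.05, 0.330 and 0.660 CPM. Apoc2 fell by a log2 fold change of -2.28 ± 0.38 (SE), with an edgeR adjusted p = 0.00724 and a range of 3.86e-06 to 0.0378 over the alternatives. Of all genes tested at this day 11.6% were called, and 6.53% of all genes tested were called lower.

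At day 9 Apoc2 held 6.27, 8.82 and 6.42 CPM in WT and 1.63, 0.577 and 0.778 CPM in DKO preadipocytes. All DKO libraries lay below, and Apoc2 fell by -2.89 ± 0.37 (SE) on the log2 scale with an edgeR adjusted p = 0.0235, where 1.24% of tested genes were called and 0.776% as lower. The call was lost, at the same direction, without WT replicate 1 (adjusted p = 0.0647), WT replicate 2 (0.139), WT replicate 3 (0.13) or DKO replicate 3 (0.0722), in the same edgeR test. The range of the adjusted p over the alternatives was 3.15e-11 to 0.139.

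At days 0 and 3 Apoc2 had at most 16 counts in any preadipocyte library and did not pass the filter on low counts. In MEFs at day 12 it held 9.26, 9.29 and 9.28 CPM in WT and 3.34, 3.397 and 3.64 CPM in DKO libraries, and fell by a log2 fold change of -1.45 ± 0.13 (SE), with an edgeR adjusted p = 4.6e-07 and 7.98% of tested genes called, 4.05% as lower. At day 0 of MEFs the values were 6.19, 5.09 and 5.97 CPM in WT and 1.89, 1.22 and 4.23 CPM in DKO, with a log2 fold change of -1.22 and an adjusted p = 0.532 in edgeR, beside 0.102% of genes called. At day 8 they were 0.858, 0.762 and 1.298 CPM against 0.730, 0.457 and 0.222 CPM, with -1.10 on the log2 scale, an edgeR adjusted p = 0.607 and 0.0595% of genes called. Shares of 18.3% at day 6 and 12.4% at day 9 of preadipocytes, and of 7.13% at day 8 and 20.5% at day 12 of MEFs, had all DKO libraries below WT. Apoc2 shares its exons with the readthrough gene Gm44805, which reaches to the start of Apoc4. Gm44805 was listed at 0 in all libraries of day 6 and all DKO libraries of day 9 of preadipocytes, and at most at 0.342 CPM in any library. That highest value was in DKO MEFs at day 8, with a mean of 0.179 CPM and all WT libraries at 0. Apoc2 itself was at 0.222 to 0.730 CPM in these DKO libraries. The part of read sharing between the 2 genes in the lower Apoc2 values at day 8 was not tested.

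**Figure D2:**
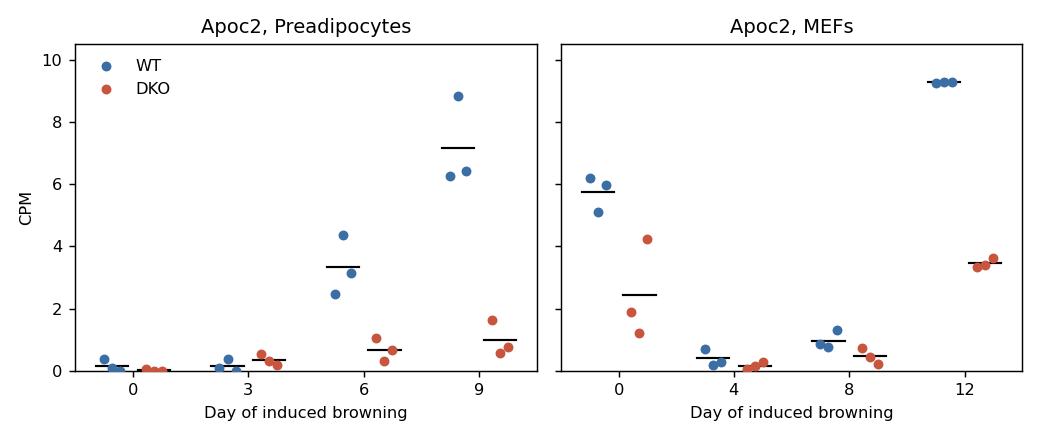
Apoc2 in CPM (linear axis) against the day of induced browning in preadipocytes (left) and MEFs (right). Each point is 1 library, blue for WT and red for DKO, and the black line is the mean of 3 libraries; the DKO points lie below the WT points at days 6 and 9 of preadipocytes and at days 0, 8 and 12 of MEFs.

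Tomm40, the neighbour of Apoe on the other side, did not follow Apoe at day 0 of preadipocytes, with 48.9, 52.4 and 42.6 CPM in WT and 50.3, 41.9 and 44.5 CPM in DKO libraries. At day 3 it held 35.8, 45.8 and 38.7 CPM in WT and 50.7, 55.1 and 56.5 CPM in DKO, different by 0.44 ± 0.11 (SE) on the log2 scale, edgeR adjusted p = 0.173. At day 6 it held 63.1, 83.7 and 70.7 CPM against 94.2, 112 and 110 CPM. Every DKO value exceeded every WT value on both days, as for 10.6% and 24.7% of all tested genes.

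The log2 fold change of Tomm40 at day 6 was 0.50 ± 0.11 (SE), with an edgeR adjusted p = 0.0175, below the fold change threshold. It was called without WT replicate 2, at 0.61. At day 9 it held 65.2, 60.1 and 77.1 CPM in WT and 90.8, 87.4 and 110 CPM in DKO, different by 0.47 ± 0.12 on the log2 scale, edgeR adjusted p = 0.072. In MEFs at day 12 it held 43.6, 46.2 and 43.3 CPM in WT and 60.1, 67.4 and 61.7 CPM in DKO, different by 0.48 ± 0.06 on the log2 scale, edgeR adjusted p = 8.19e-06, again below the fold change threshold. At days 0, 4 and 8 of MEFs its log2 fold changes were -0.12, 0.20 and 0.34, with edgeR adjusted p = 0.68, 0.827 and 0.694.

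Clptm1, Relb and Bcam were not called in any of the 8 comparisons of DKO with WT. The log2 fold change of Clptm1 lay between -0.23 and 0.14, with edgeR adjusted p from 0.308 to 0.998, and its level between 98.9 and 156 CPM by group means. That of Relb lay between -0.26 and 0.12, with edgeR adjusted p from 0.411 to 0.974. These p-values do not show equal levels.

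Bcam had log2 fold changes between -0.82 and -0.02, with edgeR adjusted p from 0.0985 to 0.994. At day 6 it held 1.35, 1.39 and 1.29 CPM in WT and 0.548, 1.21 and 0.660 CPM in DKO preadipocytes, with all DKO libraries below. It was called as lower without DKO replicate 2 at day 6, with a log2 fold change of -1.16 and an edgeR adjusted p = 0.0292, and without DKO replicate 2 at day 9, with -1.23 and an adjusted p = 0.0288. At day 0 its libraries were far apart within each group, at 10.3, 19.5 and 8.42 CPM in WT and 20.3, 7.02 and 10.2 CPM in DKO.

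Over the 5 neighbours and 8 comparisons, 37 of 40 results passed the filter on low counts, 0 were called as higher in DKO by edgeR and 3 as lower, all of them Apoc2. At an unadjusted p under 0.05, 4 were higher, all of them Tomm40, and 6 were lower, and DESeq2 and limma-voom each called 0 higher and 3 lower. Over all genes and the same 8 comparisons, edgeR called 1456 of 121218 results higher and 1771 lower, 2.66% in either direction. At an unadjusted p under 0.05, 11640 of these results were higher and 10982 lower. The share of genes called in either direction was 0.218% at day 0 and 0.337% at day 3 of preadipocytes and 0.0905% at day 4 of MEFs. The difference between each neighbour and Apoe was not tested.

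**Figure D3:**
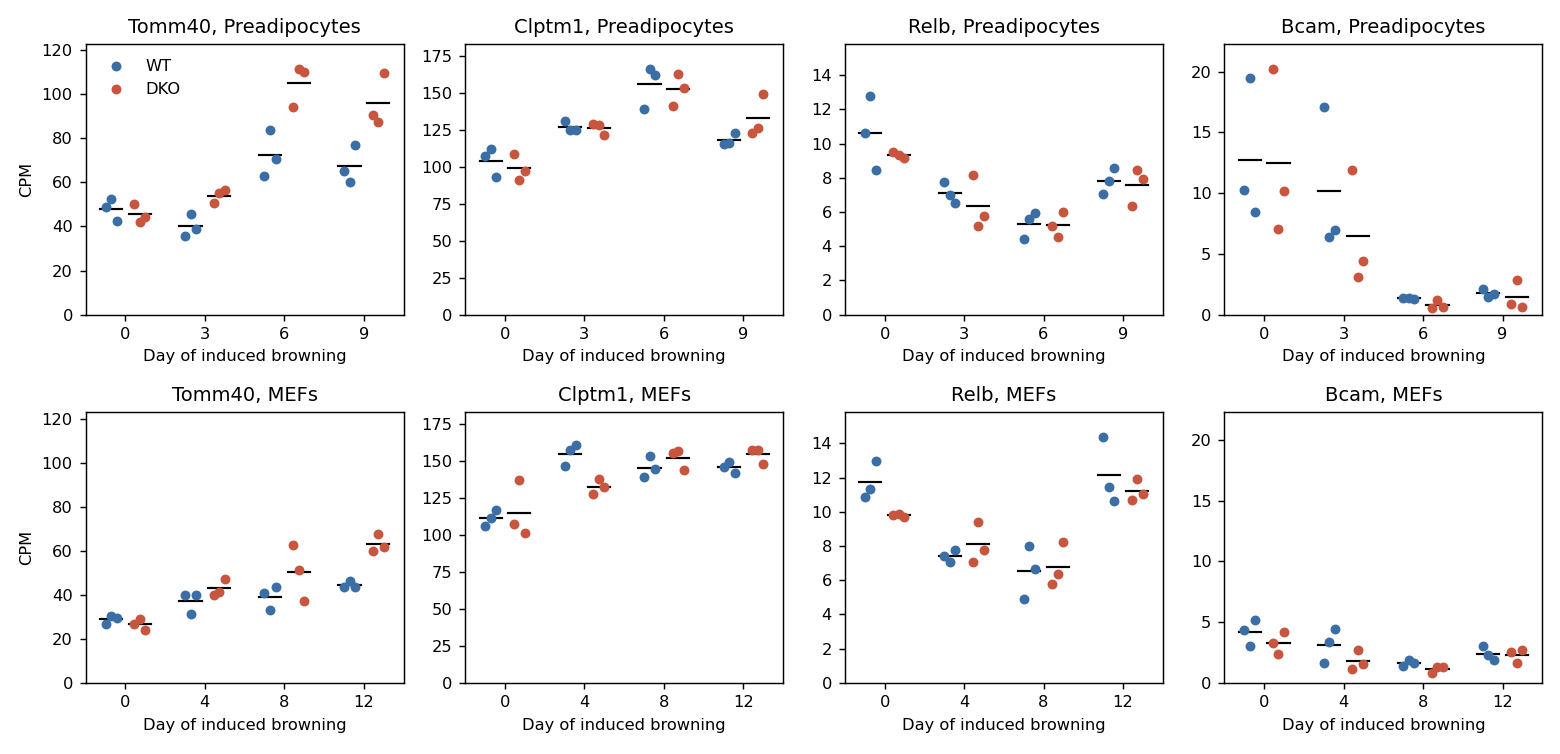
Tomm40, Clptm1, Relb and Bcam in CPM (linear axes from 0) against the day of induced browning in preadipocytes (top) and MEFs (bottom). Each point is 1 library, blue for WT and red for DKO, and the black line is the mean of 3 libraries; the DKO points of Tomm40 lie above the WT points at days 3, 6 and 9 of preadipocytes and at day 12 of MEFs.

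Among the 25 other genes within 200 kb of Apoe, 12 were tested in at least 1 of the 8 comparisons, and 2 of 73 results were called, both as higher in DKO. These are 2.74% of the results, beside 2.66% of the results of all genes over the same 8 comparisons, and 11.6% and 7.98% of all genes were called in the comparisons that hold them. Nectin2, a cell adhesion gene next to Tomm40, went from 42.2 ± 5.46 to 75.2 ± 12.8 CPM (SD, n = 3) in preadipocytes at day 6, or 0.80 ± 0.14 (SE) on the log2 scale, with an edgeR adjusted p = 0.00868. Apoc4, the apolipoprotein gene between Apoc1 and Apoc2, went from 1.71 ± 0.422 to 2.98 ± 0.854 CPM (SD, n = 3) in MEFs at day 12, with 0.77 ± 0.27 and an edgeR adjusted p = 0.0349. The call of Apoc4 was lost without WT replicate 2 (edgeR adjusted p = 0.0969) or 3 (0.153) or DKO replicate 2 (0.145) or 3 (0.0675), and at day 9 of preadipocytes its log2 difference was -0.82 with all DKO libraries below WT and an edgeR adjusted p = 0.136. Nectin2 also differed by 0.51 ± 0.08 (SE) in MEFs at day 12 (edgeR adjusted p = 0.000152), below the fold change threshold. Among the genes tested in more than 1 comparison, only Trappc6a (log2 fold changes from 0.10 to 0.51) and Zfp296 (from -1.34 to -0.31) kept 1 direction. Neither was called. The lowest edgeR adjusted p of Trappc6a was 0.00624, in MEFs at day 12, where its log2 fold change of 0.37 was below the fold change threshold. That of Zfp296 was 0.0737. At an unadjusted p under 0.05, 12 results were higher and 7 lower.

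At days 0 and 3 of preadipocytes, when the difference in Apoe was already present, edgeR called 0 of 8 and 0 of 9 tested genes of the region, against 3 and 3 genes at an unadjusted p under 0.05. Of all genes, edgeR called only 0.218% and 0.337% at these days, so nothing is read from these counts of 0. In the region DESeq2 and limma-voom each called 0 at day 0 and 1 at day 3, as higher in DKO. Of the region's genes tested at day 3, only Ceacam19 had an edgeR fold change past the threshold in that direction. Ceacam19 was at 0 in all WT libraries of both days, with DKO means of 0.266 CPM at day 0 and 0.521 CPM at day 3. Against a limit of 3 counts per library these are at least 2.03-fold and 4.355-fold higher. It was not tested at day 0. At day 3 its fitted log2 fold change was 6.82 ± 0.78 (SE), from a WT level of 0, with an edgeR adjusted p = 0.0732. The genes nearest beyond the 7 were Clasrp, with group means of 12.3 to 32.8 CPM and adjusted p of at least 0.601 in edgeR, and Gm26890 with 0.253 to 0.999 CPM on the side of Relb. On the side of Bcam, Gm26600 and Cblc had group means of at most 0.0299 and 0.0486 CPM and were not tested.

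**Figure D4:**
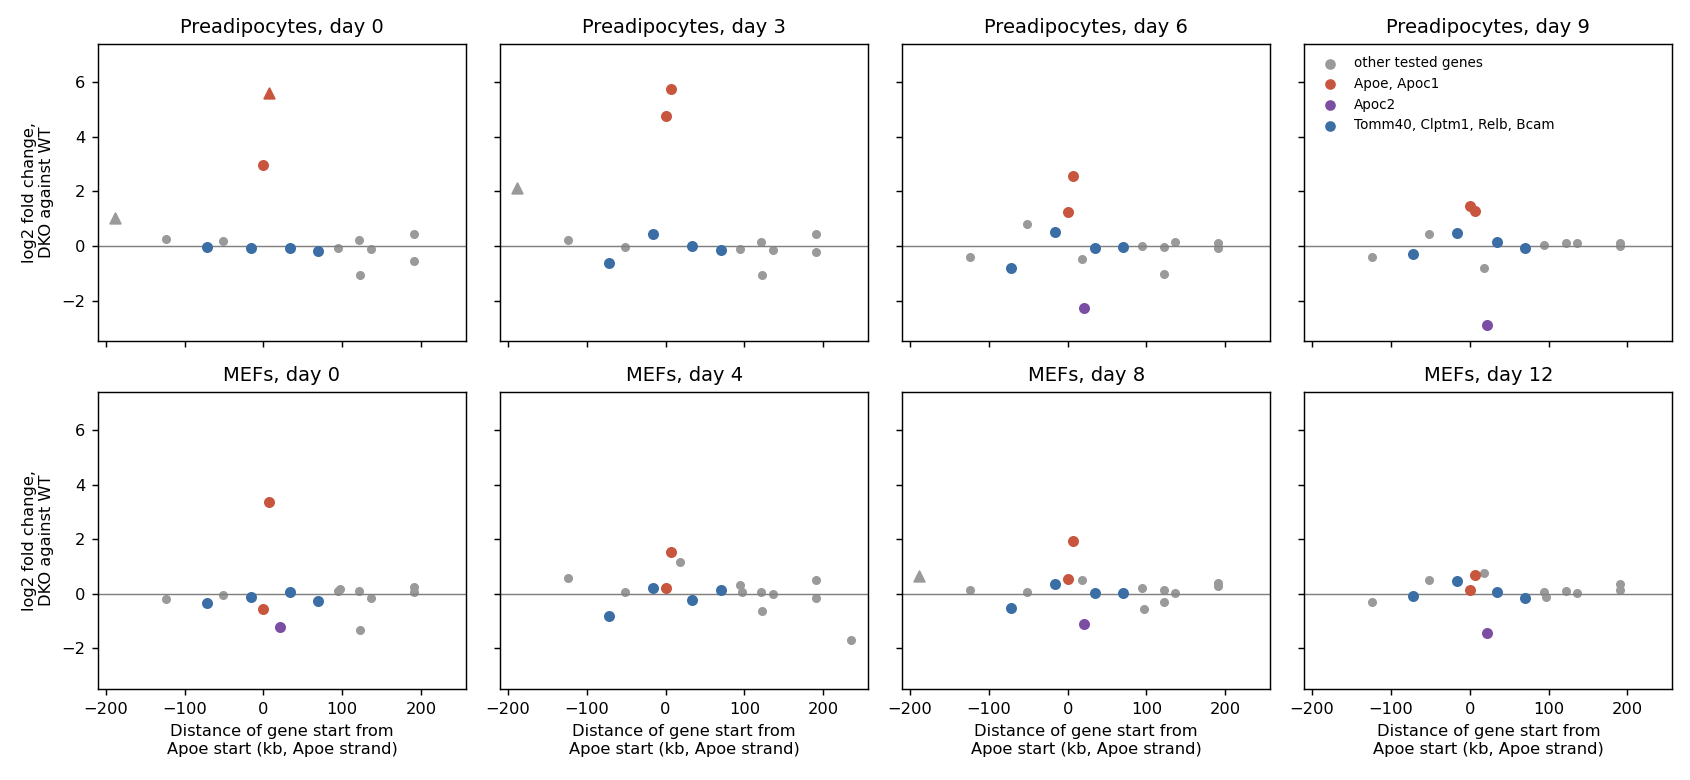
Log2 fold change of DKO against WT (vertical axis) of the tested genes within 200 kb of Apoe, against the distance of the gene start from the Apoe start in kb along the direction in which Apoe is read, at each day of preadipocytes (top) and MEFs (bottom). Red points are Apoe and Apoc1, purple Apoc2, blue the other neighbours and grey other genes, and triangles mark a least fold change where WT is at 0 (Apoc1 at day 0, Ceacam19 at days 0 and 3 of preadipocytes and at day 8 of MEFs); the red points stand above all other circles at days 0 and 3 of preadipocytes, while a triangle gives no rank.

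The course in WT cells used no DKO library and was tested for all 7 genes. In WT preadipocytes Apoe did not differ detectably between days 0 and 3, with 29.6 ± 7.20 and 29.0 ± 3.41 CPM (SD, n = 3) and an edgeR adjusted p = 0.949. Between days 3 and 6, Apoe rose to 465 ± 220 CPM (SD, n = 3), or by a log2 fold change of 4.00 ± 0.41 (SE) with an edgeR adjusted p = 0.000299. Apoc1 rose by 3.54 ± 0.50 (adjusted p = 0.000676), Apoc2 by 4.45 ± 0.75 (adjusted p = 0.00193) and Tomm40 by 0.85 ± 0.13 (adjusted p = 0.00109) in the same edgeR test, while Bcam fell by -2.90 ± 0.43 (adjusted p = 0.00113). The log2 fold change of Apoc2 was 6.28 without replicate 2 and 3.77 without replicate 3 of day 3, and that of Bcam was -2.31 without replicate 1 of day 3.

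Clptm1 differed by 0.30 between these days (edgeR adjusted p = 0.0198), below the fold change threshold, and Relb by -0.42 (edgeR adjusted p = 0.0517). The 5 calls among 7 genes stand beside 45.9% of all genes called between days 3 and 6. Between days 0 and 3 none of the 5 genes that passed the filter, Apoe and all neighbours but Apoc2, was called by edgeR, DESeq2 or limma-voom. Of these neighbours, 2 were at an unadjusted p under 0.05 in edgeR, and 22% of all genes were called.

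Between days 6 and 9 the apolipoprotein genes parted. Apoc1 rose from 3.64 ± 0.463 to 17.4 ± 3.60 CPM (SD, n = 3; edgeR adjusted p = 4.46e-05) and Apoc2 from 3.33 ± 0.949 to 7.17 ± 1.43 CPM (SD, n = 3; edgeR adjusted p = 0.00553). Apoe had a log2 fold change of -0.66 ± 0.49 (SE) with an edgeR adjusted p = 0.356, and 17.3% of genes were called. With replicate number as a second term Apoe was called lower (-0.60, edgeR adjusted p = 0.00049). Within a library, Apoc1 counts were 0.635% to 1.56% of Apoe counts at day 6 and 4.31% to 7.96% at day 9 in WT cells, against 1.72% to 2.39% and 4.66% to 6.19% in DKO cells.

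In WT MEFs, Apoe fell between days 0 and 4 from 1633 ± 134 to 770 ± 80.9 CPM (SD, n = 3), or by -1.08 ± 0.11 (SE) on the log2 scale, with an edgeR adjusted p = 0.000247. Apoc2 fell by -3.77 ± 0.41 (edgeR adjusted p = 0.000364) and Relb by -0.65 ± 0.12 (adjusted p = 0.00316), and Apoc1 rose by 4.37 ± 0.95 (adjusted p = 0.0084), beside 33.4% of all genes called. Without replicate 1 of day 4 the log2 fold change was 3.12 for Apoc1 and -4.55 for Apoc2, and without replicate 2 of day 0 it was 5.07 for Apoc1. Relb was not past the fold change threshold after scaling by library size alone (-0.53), with limma-voom (-0.57) or without WT replicate 3 of day 0 (-0.58).

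Between days 4 and 8 edgeR called 0 of 15345 genes, against 1078 higher and 1170 lower at an unadjusted p under 0.05 and 279 called by DESeq2 and 0 by limma-voom. Apoe differed by 0.63 ± 0.20 (SE) with an edgeR adjusted p = 0.335. Between days 8 and 12, Apoc1 rose by 3.58 ± 0.38 (edgeR adjusted p = 0.00109), Apoc2 by 3.16 ± 0.21 (adjusted p = 0.000162) and Relb by 0.81 ± 0.21 (adjusted p = 0.0218), while Apoe had a log2 fold change of 0.27 ± 0.18 (edgeR adjusted p = 0.284). The call of Relb was lost without replicate 3 of day 8 (adjusted p = 0.0541) or without replicate 1 (0.0789) or 2 (0.0586) of day 12 in the same edgeR test, and 21.5% of all genes were called.

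The macrophage markers, genes such as Adgre1, Cd68 and C1qa that are typical of cells known to make apolipoprotein E, were summed in each library beside these results. The sum was 156 to 545 CPM in WT and 43.2 to 404 CPM in DKO preadipocytes at day 0, and 75.0 to 280 and 64.7 to 242 CPM at day 3. The ranges overlapped at both days, and Aif1 was at 0 in all libraries of day 3. The DKO library with the lowest sum at day 0 (43.2 CPM, replicate 3) held 197 CPM of Apoe. The part of macrophage RNA in the Apoe values was not tested.

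At day 6 the sum was 8075 to 13440 CPM in WT and 2794 to 6708 CPM in DKO libraries, lower in all DKO libraries, and at day 9 it was 4277 to 8653 and 1857 to 4359 CPM. In WT libraries of these days the lowest Apoe value stood beside the lowest sum, at 224 CPM of Apoe beside 8075 CPM of markers at day 6 and 183 beside 4277 at day 9, both in replicate 1. In DKO libraries it did not. Their lowest Apoe values, 964 CPM at day 6 and 673 CPM at day 9, were in replicate 3. Their lowest sums, 2794 and 1857 CPM, were in replicate 2, which held the highest DKO Apoe value of day 9 (936 CPM). At day 0 the WT values of Apoe, 37.5, 27.9 and 23.4 CPM in replicates 1 to 3, ran in the order of the sums, 545, 349 and 156 CPM. At day 3 the lowest WT value of Apoe, 25.3 CPM in replicate 2, stood beside the highest sum, 280 CPM. At day 6 Apoe was higher in all DKO libraries while the marker sum was lower. Apoc2 was lower in all DKO libraries at both days, as the marker sum was at day 6, and the part of macrophage RNA in this difference was not tested.

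In MEFs the macrophage sum was 9065 to 11229 CPM in WT and 7208 to 8591 CPM in DKO libraries at day 0. Apoe and Apoc2 were also lower in all DKO libraries at that day, and the part of macrophage RNA in this was not tested. At day 4 the sum was 5625 to 6402 CPM in WT, while Apoc2 had dropped to 0.399 ± 0.278 CPM (SD, n = 3) from 5.75 ± 0.582 CPM at day 0. The most abundant marker alone had a mean of 4573 CPM in WT at day 4, so this sum rests mostly on 1 gene. At day 12 the sum was 6852 to 6900 CPM in WT and 4674 to 5332 CPM in DKO libraries, with Apoc2 lower and Apoc1 higher in DKO.

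The adipocyte markers, among them Adipoq, Plin1 and Fabp4, were summed in the same way. The sum was 27.3 to 32.6 CPM in WT and 32.8 to 72.0 CPM in DKO preadipocytes at day 0, and 369 to 1350 against 2091 to 2963 CPM at day 3. It was 13926 to 17721 against 20713 to 25689 CPM at day 6 and 19159 to 19641 against 24004 to 29730 CPM at day 9. In MEFs at day 12 it was 10556 to 10889 CPM in WT and 16805 to 17950 CPM in DKO libraries. The sum was higher in all DKO libraries of these groups. At day 0 of MEFs, where all DKO libraries of Apoc1 lay above WT, the sums overlapped, at 48.8 to 54.8 CPM in WT and 46.7 to 99.2 CPM in DKO. The sums and Apoc1 both overlapped between genotypes at days 4 and 8 of MEFs. The sums were 356 to 2139 CPM in WT and 982 to 3198 CPM in DKO at day 4. At day 8 they were 745 to 4264 and 1085 to 8591 CPM. Within each genotype at these days, the Apoc1 values of the libraries ran in the order of their sums. The sums of DKO day 3 preadipocytes were lower than those of WT day 6, while Apoc1 was higher, at 11.5 to 20.1 against 3.27 to 4.16 CPM. Apoe overlapped between these groups, at 588 to 912 against 224 to 655 CPM. The part of the adipocyte markers in the Apoe and Apoc1 values was not tested.

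The markers of preadipocytes or fibroblasts summed to 11763 to 12268 CPM in WT and 14003 to 16298 CPM in DKO preadipocytes at day 0, higher in all DKO libraries, and to 5942 to 7379 and 6008 to 6831 CPM at day 3. At day 6 they summed to 2254 to 2721 CPM in WT and 873 to 1246 CPM in DKO libraries, lower in all of these, and at day 9 to 3905 to 4485 and 1594 to 4309 CPM. Endothelial markers summed to at most 35.5 CPM in any library, and mesothelial markers to at most 45.9 CPM in preadipocytes and 537 CPM in MEFs.

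**Figure D5:**
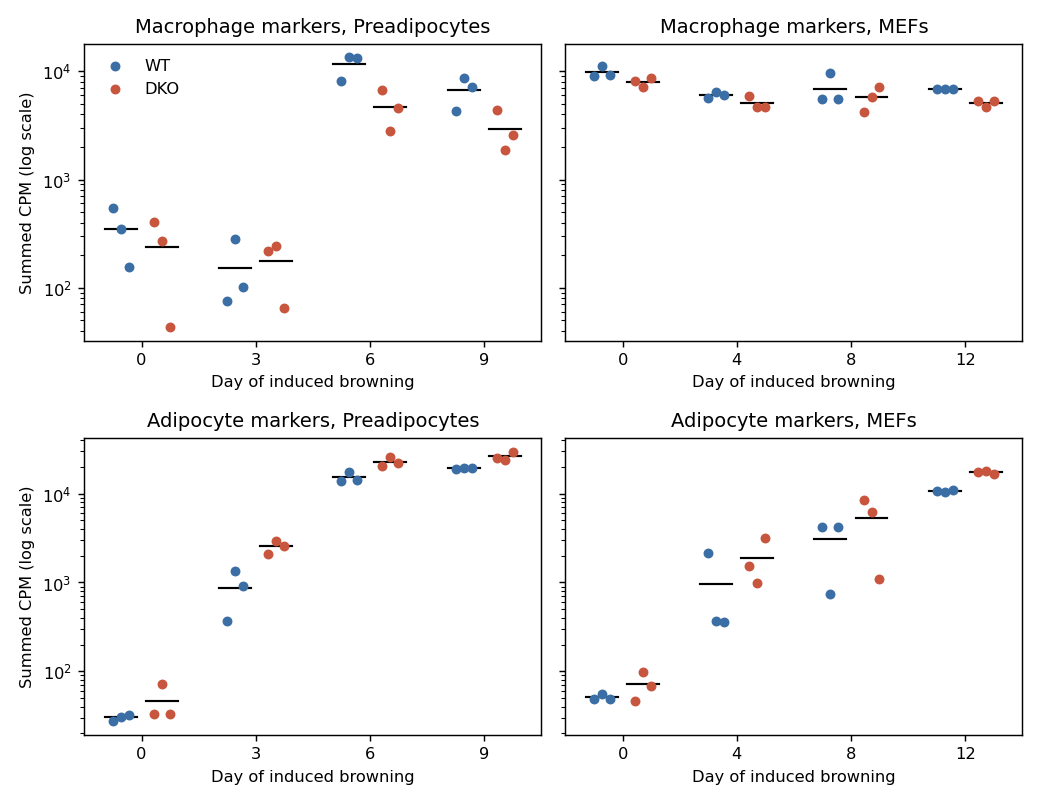
Summed CPM (log axes) of 15 macrophage markers (top) and 10 adipocyte markers (bottom) against the day of induced browning, in preadipocytes (left) and MEFs (right). Each point is 1 library, blue for WT and red for DKO, and the black line is the mean of 3 libraries; the macrophage sum is lower in all DKO libraries at day 6 of preadipocytes and days 0 and 12 of MEFs, and the adipocyte sum is higher in all DKO libraries at each day of preadipocytes.

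A list of 47 other genes of lipoprotein handling was set beside the cluster. The most abundant in preadipocytes were Lpl (lipoprotein lipase), Lrp1 (a receptor for Apoe), the fatty acid carrier Cd36 and the cholesterol carrier Npc2, with means of 4483, 3446, 2006 and 651 CPM, and in MEFs Lpl, Lrp1, Cd36 and Apod, with 4407, 2983, 1270 and 709 CPM. At days 0 and 3 of preadipocytes edgeR called 0 of 35 tested genes of the list at each day, against 4 and 11 at an unadjusted p under 0.05, and DESeq2 called 0 and 5 and limma-voom 0 and 0. Of all genes, edgeR called only 0.218% and 0.337% at these days, so nothing is read from its counts of 0. At days 0, 4 and 8 of MEFs edgeR and limma-voom called 0 and DESeq2 1 at each day, against 1, 3 and 6 at an unadjusted p under 0.05. The shares of all genes called by edgeR at these days were 0.102%, 0.0905% and 0.0595%.

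At day 6 of preadipocytes 5 of 38 genes were called higher and 1 lower, 15.8% beside 11.6% of all genes. The 2 with the largest changes were Angptl8, an inhibitor of lipoprotein lipase, from 0.645 to 1.94 CPM (log2 fold change 1.54 ± 0.25 SE, edgeR adjusted p = 0.00704), and Apoc3, another lipase inhibitor, from 1.81 to 4.97 CPM (1.41 ± 0.35, edgeR adjusted p = 0.0269). Soat1, which esterifies cholesterol, was lower (-0.67 ± 0.15, edgeR adjusted p = 0.0204). The call was lost for Apoc3 without WT replicate 1 or 3 or DKO replicate 2 or 3 (edgeR adjusted p from 0.0519 to 0.108). It was lost for Soat1 without WT replicate 2 or 3 or DKO replicate 3 (edgeR adjusted p from 0.0582 to 0.0867), and without DKO replicate 2, where the fold change was below the threshold (-0.54). The median log2 fold change of the list was 0.28 against -0.01 over all genes.

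At day 9 the endothelial lipase gene Lipg was called higher (1.48 ± 0.19 SE, edgeR adjusted p = 0.0235) and Apobr, a receptor for apolipoprotein B, lower (-0.64 ± 0.11, edgeR adjusted p = 0.0424), 5.26% of 38 genes beside 1.24% of all. Both calls were lost without any 1 of the WT replicates or without DKO replicate 3, and that of Apobr also without DKO replicate 1 and with limma-voom, with adjusted p up to 0.15 for Lipg and 0.179 for Apobr in edgeR. In MEFs at day 12, 8 of 36 were called higher and 0 lower by edgeR, with 6 lower at an unadjusted p under 0.05 and 0 lower called by DESeq2 or limma-voom, 22.2% beside 7.98% of all genes. The largest changes were those of Lipg (1.17 ± 0.13, edgeR adjusted p = 9.44e-06) and Apoc3 (1.05 ± 0.12, edgeR adjusted p = 5.36e-06). The LXR gene Nr1h3 was not called by edgeR in DKO against WT at any day, with log2 fold changes from 0.07 to 0.99. At day 3 of preadipocytes its log2 fold change was 0.65 with an edgeR adjusted p = 0.0956, and DESeq2 called it with 0.00196. At day 12 of MEFs edgeR gave it an adjusted p = 2.05e-05 at a log2 fold change of 0.43, below the fold change threshold.

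In WT cells, between days 3 and 6 of preadipocytes, 17 of 37 genes of the list were called higher and 5 lower, 59.5% beside 45.9% of all genes, with Apoc3 (from 0.0147 to 1.81 CPM, edgeR adjusted p = 0.000235) and Cd36 (4.72 ± 0.59, edgeR adjusted p = 0.000703) ahead. Among the genes called lower was Lrp8, a receptor for Apoe (-2.05 ± 0.19, edgeR adjusted p = 0.000101). Between days 8 and 12 of MEFs 13 of 36 were called higher and 0 lower by edgeR, 36.1% beside 21.5% of all genes, with 4 lower at an unadjusted p under 0.05, 0 lower by DESeq2 and 1 lower by limma-voom. In preadipocytes 9 were called higher and 7 lower between days 0 and 3, 45.7% of the tested list beside 22% of all genes, and 9 and 3 between days 6 and 9, 31.6% beside 17.3%. Between days 0 and 4 of MEFs 9 were called higher and 4 lower, 39.4% beside 33.4%.

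The genes whose levels ran most like those of Apoe over the 24 preadipocyte libraries, by Pearson's r of log2(CPM + 0.5) among 13707 genes, were Coq2 (r = 0.933), Clec16a (r = 0.909), Thtpa (r = 0.888), Nim1k (r = 0.886) and Gatc (r = 0.885), and Apoc1 itself had r = 0.911. For Apoc1 they were Smarcal1 (r = 0.907), Thtpa (r = 0.897), Dynlt1b (r = 0.887), Nrde2 (r = 0.883) and Lyrm7 (r = 0.874). Thtpa, the thiamine triphosphatase gene, was on both lists. In the 24 MEF libraries Cuta (r = 0.85), Tmem9b (r = 0.816), AC161119.1 (r = 0.797), Marveld1 (r = 0.789) and the macrophage gene Siglec1 (r = 0.785) ran most like Apoe, and Apoc1 had r = 0.382. Nr1h3 (r = 0.988), Tdrp (r = 0.983), Arhgef37 (r = 0.982), Lias (r = 0.981) and Aldh1l1 (r = 0.979) ran most like Apoc1 in MEFs. These are descriptions over libraries that share genotype and day, and the DKO libraries that chose Apoe and Apoc1 are among them.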

How the data were processed

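RNA-seq libraries of preadipocytes and MEFs were used, 24 of each. Per the submitters' processing notes, the tools used were bcl2fastq 2.17, cutadapt 1.18, STAR 2.7.0f and RSEM 1.3.0, on mm10, and the authors deposited for each cell type a table of expected counts per gene, not normalized. Reads matching more than one gene are shared out, so 5.49% to 7.9% of a library's values had decimals. All 55450 identifiers matched GENCODE M21.

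Expected counts were rounded and fitted with edgeR 4.0.16 in R 4.3.3 (filterByExpr, TMM, robust quasi-likelihood test, genotype or day as the only term) in the 6 libraries of each comparison, with Benjamini-Hochberg adjustment over all genes tested. Groups follow the sample labels. Apoe and Apoc1 were given no p-value between genotypes. The test was first run on simulated counts. Each result was also computed with DESeq2 1.42.0, with limma-voom (limma 3.58.1) after quantile normalization, with library sizes in place of TMM, without filterByExpr, with a block for replicate number, and without each library in turn. CPM were TMM-scaled over the 24 libraries of a cell type.

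Named are the 7 genes, the genes of the region that were called and the 2 nearest on each side, the 4 most abundant of 47 lipoprotein genes and up to 2 called with the largest changes in each direction, and the 5 genes most alike. Nr1h3, Ceacam19, Trappc6a, Zfp296 and the genes named from the marker lists were picked after values were seen. The genes and lists were chosen with earlier results of these data known. Upstream sequences came from a RefSeq table, which held 5 of the 7 genes. A count of 0 was given a limit of 3 counts per library, which covers counting error only. Chromatin, single-cell and protein data were not analysed here. The values of 1 gene that the naming rule picked are not reported here.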

Additional observations from a re-analysis of the deposited data

Results flagged for a closer look

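The DKO effect on Apoe took opposite directions in different groups, which was not tested. In preadipocytes at day 0 every DKO library lay above every WT library and in MEFs at day 0 every DKO library lay below, and the log2 fold changes differed by 3.55. In MEFs every DKO library lay below WT at day 0 and above at day 12, and the log2 fold changes differed by -0.72 (day 0 minus day 12). The WT level of Apoe itself was 29.6 CPM in preadipocytes and 1633 CPM in MEFs at day 0, each scaled within its own table. The macrophage markers summed to 156 to 545 CPM in WT preadipocytes and 9065 to 11229 CPM in WT MEFs at that day, and their part in the opposite directions was not tested.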

How the results depend on the processing

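With 3 libraries a group, all 1175 alternative values of the 7 genes and their counts were read against the main one: 1107 kept direction and side, 29 turned direction, none of them of a called result, and the causes were not tested. As log2 fold changes, without the filter Clptm1 stood at 0.01 at day 3 of preadipocytes, with limma-voom Relb stood at 0.10 at day 6 and 0.04 at day 9, and by library size only Apoe stood at 0.01 between WT days 0 and 3 and Tomm40 at -0.08 between WT MEF days 4 and 8. Leaving out 1 library gave, in DKO against WT, -0.56 to 0.42 (day 0) and -1.23 to 0.06 (day 9) for Bcam in preadipocytes and -0.22 to 0.11 (day 12) in MEFs, -0.02 to 0.03 (preadipocyte day 3) and -0.09 to 0.14 (MEF day 0) for Clptm1, and -0.17 to 0.05 (day 6), -0.16 to 0.04 (day 9), 0.00 to 0.20 (MEF day 4) and -0.13 to 0.22 (MEF day 8) for Relb. In WT cells it gave -0.15 to 0.19 for Apoe and -0.92 to 0.12 for Bcam (preadipocyte days 0 to 3), -0.08 to 1.58 for Apoc1 and -0.04 to 0.17 for Tomm40 (MEF days 4 to 8) and 0.00 to 0.19 for Tomm40 (MEF days 8 to 12). Called neighbours ranged from 1 to 2 at day 6 and 0 to 2 at day 9 of preadipocytes and called genes from 0 to 1 between WT days 0 and 3, where no filter gave 1.

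The libraries were not treated as paired by replicate number, since in 0 of 14 comparisons was every correlation of same-numbered libraries above 0.1 (-0.664 to 0.579). This does not exclude a pairing. Between WT days 6 and 9 of preadipocytes the correlations were 0.394, 0.253 and 0.0987. With the number as a block, called neighbours at day 9 went from 1 to 0 (Apoc2 adjusted p = 0.0731 in edgeR), Apoe stood at 0.00 between WT days 0 and 3 and was called between days 6 and 9 (-0.60, edgeR adjusted p = 0.00049), and Relb was no longer called between MEF days 8 and 12 (0.0566), nor Soat1 at day 6 (0.0762) or Lipg (0.0676) and Apobr (0.0783) at day 9 of preadipocytes.

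Counts over all genes moved most: 33 called at day 0 of preadipocytes (8 to 145 over the alternatives), 51 at day 3 (13 to 408), 1699 at day 6 (720 to 1896), 183 at day 9 (20 to 1460, the most without DKO replicate 2 and the fewest without WT replicate 2), 16, 14 and 9 at days 0, 4 and 8 of MEFs (3 to 529, the most without DKO replicate 1, 5 to 91 and 2 to 97) and 0 between WT MEF days 4 and 8 (up to 308, without replicate 1 of day 4).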
